A study of Mus musculus with 18 samples.

Results

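Chemokines are small secreted proteins that steer the movement of leukocytes and other cells, and they act through a family of membrane receptors. The genes described here are all those with a symbol of a chemokine ligand (Ccl, Cxcl, Cx3cl or Xcl with a number), of a signalling chemokine receptor (Ccr, Cxcr, Cx3cr or Xcr) or of an atypical chemokine receptor (Ackr). They number 61 of 54496 gene symbols in the series, with 39 ligands, 18 signalling receptors and 4 atypical receptors. The table of dermal papilla cells (DP), the mesenchymal signalling cells that sit under the follicle, held 60 of them among 52958 symbols. The table of hair follicle stem cells (HFSC), the epithelial cells that regrow the follicle, held 60 among 27933 symbols. Values were measured in 18 RNA-seq libraries of female mice, 2 for each of 9 groups, from cells purified by flow cytometry. In the surgery experiment, wild type C57BL/6 mice were adrenalectomised (ADX), adrenalectomised and fed corticosterone (ADX+CORT, HFSC only) or sham-operated (Sham). In the deletion experiment, mice of a mixed 129/C57BL/6 background carried Pdgfra-CreER and floxed alleles of the glucocorticoid receptor (GR fl/fl, here GR KO), next to Control mice labelled wild type. Both GR KO and Control mice received tamoxifen into the peritoneum for 6 days. The Cre is driven by Pdgfra, a gene of dermal mesenchyme, so that DP cells are targeted and HFSC are not. Strain and tamoxifen differ between both experiments, and their part in any difference between ADX and GR KO effects cannot be told apart from that of the manipulation. The title of the series asks whether corticosterone, the main glucocorticoid of mice, inhibits Gas6 and thereby keeps HFSC quiescent.

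Inflammatory chemokines such as Ccl2 and Cxcl1 are induced by NF-kB and attract monocytes or neutrophils, whereas homeostatic ones such as Cxcl12 and Cxcl14 are made steadily by stromal or epithelial cells. Atypical receptors bind chemokines without the usual G protein signal and mostly remove them. Glucocorticoids acting on GR are known to repress many inflammatory chemokine genes. Macrophages, Langerhans cells and T cells of the skin make chemokines and follow them.

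RefSeq promoter sequences (build GRCm38.p6), from 250 bases before to 50 bases after a gene's start, were given for 45 of the 61 genes, with 52 sequences in all. Those of Ccl20, Cxcl3, Ccl9 and Ackr3 are printed here 5′ to 3′ in the direction of the gene, since their genes are among those with the widest differences between groups and the first 3 hold an NF-kB motif. Capitals mark matches to the NF-kB motif GGGNNTTTC, the core of the glucocorticoid response element, ACANNNTGT, or the TATA motif TATAAA, each searched on both strands. The 3 sequences of chromosomes 1 and 5 are on the plus strand, at chr1:83116516-83116815 for Ccl20, chr5:90785851-90786150 for Cxcl3 and chr1:90203730-90204029 for Ackr3, and that of Ccl9 is on the minus strand at chr11:83578587-83578886.
Ccl20: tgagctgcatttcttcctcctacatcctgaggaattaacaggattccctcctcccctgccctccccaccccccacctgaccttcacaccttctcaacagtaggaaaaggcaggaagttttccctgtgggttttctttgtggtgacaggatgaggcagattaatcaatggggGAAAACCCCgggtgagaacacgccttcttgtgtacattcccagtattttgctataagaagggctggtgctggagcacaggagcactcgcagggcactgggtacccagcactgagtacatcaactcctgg
Cxcl3: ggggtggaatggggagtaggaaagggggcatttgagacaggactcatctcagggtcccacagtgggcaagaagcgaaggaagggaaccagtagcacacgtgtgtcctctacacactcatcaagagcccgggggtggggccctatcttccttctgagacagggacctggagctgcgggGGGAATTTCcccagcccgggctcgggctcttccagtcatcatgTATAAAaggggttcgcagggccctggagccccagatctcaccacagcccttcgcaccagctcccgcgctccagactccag
Ccl9: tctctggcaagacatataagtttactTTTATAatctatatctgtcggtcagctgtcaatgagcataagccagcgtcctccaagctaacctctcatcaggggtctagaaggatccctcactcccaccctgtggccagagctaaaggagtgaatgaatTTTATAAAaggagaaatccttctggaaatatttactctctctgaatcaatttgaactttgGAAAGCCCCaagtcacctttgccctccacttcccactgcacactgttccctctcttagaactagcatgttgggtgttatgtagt
Ackr3: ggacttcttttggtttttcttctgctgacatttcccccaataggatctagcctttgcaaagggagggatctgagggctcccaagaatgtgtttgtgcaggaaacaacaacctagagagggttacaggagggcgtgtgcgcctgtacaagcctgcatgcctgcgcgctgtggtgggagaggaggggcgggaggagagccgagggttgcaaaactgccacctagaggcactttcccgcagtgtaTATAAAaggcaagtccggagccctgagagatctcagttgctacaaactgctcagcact
The NF-kB match began 79 bases before the start in Ccl20, 73 in Cxcl3 and 34 in Ccl9, and overlapped no other motif searched. A TATA match began 30 bases before the start in Cxcl3, 8 in Ackr3, and 224, 94 and 92 in Ccl9, where the last 2 overlap each other. The NF-kB motif was found in 12 of the 52 sequences (23.1%), among them those of Cxcl1, Cxcl2, Cxcl9 and Cxcr2, and in 4.36% of all 32851 promoters of the same length. TATAAA was found in 14 of the 52 (26.9%) and in 13.6% of all promoters. The core of the glucocorticoid response element was found in 2 of the 52 (3.85%), those of Ccr3 and Cxcl1, and in 6.85% of all promoters. Other windows were not searched.

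The genes lie in clusters on GRCm38. Chromosome 11 holds 12 ligand genes, chromosome 5 holds 11, and chromosome 9 holds 11 of the 18 signalling receptors and 2 atypical receptors. Within chr11:82035571-82116799 lie Ccl2, Ccl7, Ccl11, Ccl12 and Ccl8 in this order, within chr11:83525778-83664683 lie Ccl5, Ccl9, Ccl6, Ccl3 and Ccl4, and within chr5:90759360-90905938 lie Cxcl5, Cxcl3, Cxcl15, Cxcl1 and Cxcl2.

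Depth was 6194415 to 13941628 counts in each DP library and 14067139 to 33014976 in each HFSC library. The deleted gene, Nr3c1, which encodes GR, stood at 137 and 111 CPM (counts per 1000000 of the library) in GR KO DP against 671 and 978 CPM in Control DP (log2 fold change -2.73, SE 0.38, edgeR adjusted p = 0.0212), and at 243 and 170.0 CPM in GR KO HFSC against 257 and 338 CPM in Control HFSC (edgeR adjusted p = 0.367). The 17 DP markers had reads in every DP library and summed to 1816 to 3890 CPM there, and the 15 HFSC markers summed to 29426 to 64194 CPM in HFSC libraries. GR KO DP replicate 1 stood apart: its 11 macrophage markers summed to 2373 CPM, against 259 CPM in GR KO DP replicate 2 and 172 to 339 CPM in the other 6 DP libraries. Nothing in the labels says that the libraries of a group came from separate animals, so p-values measure the spread between these samples, which may be technical. Reads of DP and HFSC were assigned by different tools, and no level of a chemokine gene is compared between them. A lower level in purified cells may mean fewer cells of a type or less RNA per cell, which cannot be told apart.

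Per kilobase of transcript, Ccl11, the eotaxin that attracts eosinophils, was the most abundant of these genes in 3 of the 4 DP groups, with 153 and 238 CPM per kb in ADX DP, 233 and 296 in Sham DP and 196 and 200.1 in Control DP. Ackr4, an atypical receptor that scavenges Ccl19, Ccl21 and Ccl25, followed with 108 and 167 CPM per kb in ADX DP and 126 and 199.5 in Control DP, so the ranges of both genes overlapped in either group, and it held 72.3 and 73.7 CPM per kb in Sham DP. Cxcl1, a neutrophil attractant, held 87.8 and 91.3 CPM per kb in ADX DP and 94.1 and 165 in Sham DP. GR KO DP had another order, led by Cxcl12 at 156 and 363 CPM per kb and Ccl2 at 125 and 286, whose ranges overlapped each other and that of Ccl11 at 123 and 211. In HFSC the leading gene was Cxcl14, an epithelial chemokine with antimicrobial activity, at 901 and 1083 CPM per kb in ADX, 1281 and 1848 in ADX+CORT, 1635 and 1793 in Sham and 1085 and 1133 in Control. Only in GR KO HFSC did another gene have a higher mean, Ccl8 at 844 and 998 CPM per kb against 614 and 896 for Cxcl14, and these ranges overlap. Ccl27a, which keratinocytes make to attract T cells through Ccr10, was next in the 3 surgery groups, with 151 and 238 CPM per kb in ADX, 130.1 and 167 in ADX+CORT and 97.3 and 109 in Sham. Together the genes summed to 924 to 2626 CPM in DP libraries, with the highest sum in GR KO DP replicate 1, and to 2786 to 4540 CPM in HFSC libraries.

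**Figure D1:**
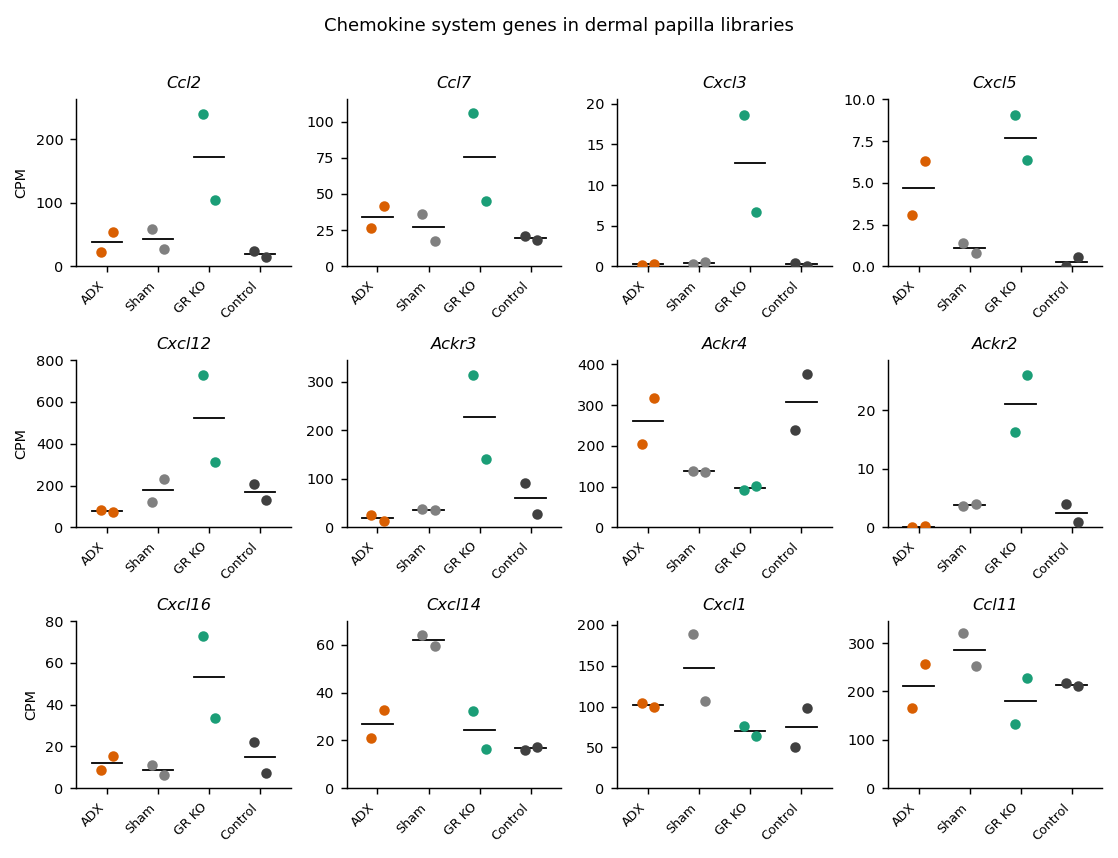
CPM of 12 chemokine and receptor genes in each DP library (points), with the group mean (line), for ADX, Sham, GR KO and Control. Ccl2 stands at 239 and 105 CPM in GR KO and at 23.5 and 15.1 in Control, while Ackr4 lies at 92.1 and 102 CPM in GR KO and at 239 and 377 in Control.

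Deletion of GR from dermal cells changed 2 of the 44 chemokine genes tested in DP. Ccl2, which attracts monocytes through Ccr2, rose 3.16 on the log2 scale, and the scavenger Ackr4 fell by 1.67. Of the 28 ligands tested, 21 had a positive log2 fold change (background 56.4%), among them Ccl7, Cxcl3, Cxcl5, Cxcl12 and Cxcl16, and all but Ccl2 missed the threshold of 0.05. The background was 0.767% of all 23463 genes called higher and 0.771% called lower, against 1 of 44 chemokine genes in each direction. At an unadjusted p under 0.05 there were 9 higher and 1 lower, with a background of 9.67% and 5.57%. DESeq2 called 8 higher and 1 lower, against 3.42% and 3.21% of all genes. Cxcl3 is among the 21, the 9 and the 8. It passed the filter on low counts through the GR KO libraries alone, so its direction was fixed in advance.

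Ccl2 stood at 239 and 105 CPM in GR KO DP and at 23.5 and 15.1 CPM in Control DP. Both GR KO libraries lay above both Control libraries and above those of ADX and Sham (log2 fold change 3.16, SE 0.58, edgeR adjusted p = 0.0373). Without Control DP replicate 1 or 2 the edgeR adjusted p was 0.115 or 0.380, and leaving out GR KO DP replicate 1, the library rich in macrophage markers, gave a log2 fold change of 2.42 and an edgeR adjusted p = 0.146. Fitted with only GR KO and Control DP it was 0.0652, and with an offset for GC content and length 0.0565. In GR KO DP replicate 2, where macrophage markers summed to 259 CPM, Ccl2 was still above every other DP library outside GR KO. The part of macrophage RNA in the value of replicate 1 was not tested.

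The neighbours of Ccl2 in its cluster differed among themselves. Ccl7, a second Ccr2 ligand, stood at 106 and 44.9 CPM in GR KO DP and 20.6 and 18.1 CPM in Control DP, without overlap (log2 fold change 1.96, SE 0.49, edgeR adjusted p = 0.0842). Ccl11 stood at 133 and 229 CPM in GR KO DP and 216 and 212 CPM in Control DP, and the groups overlapped (log2 fold change -0.25, SE 0.33, edgeR adjusted p = 0.798). Ccl8, which in mice acts on Ccr8, had 159 and 12.4 CPM in GR KO DP against 84.3 and 51.4 CPM in Control DP. Its GR KO libraries lay on either side of the Control libraries, and the fitted value of 0.34 had an SE of 0.83 (edgeR adjusted p = 0.920). Ccl12, another Ccr2 ligand, stayed under 5 CPM in every DP group.

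Ccl6 and Ccl9, Ccr1 ligands of the second cluster on chromosome 11, were high in the GR KO DP library with the high macrophage markers and low in the other. Ccl6 stood at 247 and 2.93 CPM in GR KO replicates 1 and 2, against 32.0 and 12.4 CPM in Control, and Ccl9 at 138 and 9.20 CPM in GR KO DP and 27.7 and 18.6 CPM in Control DP. Replicate 1 exceeded both Controls and replicate 2 was below both, for either gene. Ccl24, an eotaxin, showed the same split, at 24.0 and 0.0793 CPM in GR KO DP against 4.73 and 1.58 CPM in Control DP. Among receptors, Ccr1 stood at 20.1 and 0 CPM in GR KO DP against 1.26 and 0.0930 CPM in Control DP, and Ccr2, the monocyte receptor of Ccl2, at 37.0 and 0.476 CPM in GR KO DP and 1.18 and 0.837 CPM in Control DP. For Ccr1 and Ccr2 too, replicate 1 was above and replicate 2 below both Controls. The 11 macrophage markers all had a positive log2 fold change in GR KO DP (background 56.4%), with a median of 2.21. Their part in the levels of these 5 genes was not tested. The median log2 fold change of the 44 chemokine genes was 0.84 (all genes 0.17), and leaving out GR KO DP replicate 1 turned its sign, to -0.22.

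The ligands of Cxcr2, the main neutrophil receptor, also differed among themselves. Cxcl3 had 18.7 and 6.66 CPM in GR KO DP and 0.473 and 0.0930 CPM in Control DP. No library of ADX, Sham or Control exceeded 0.564 CPM, so both GR KO libraries stood clear of the other 6 (log2 fold change 5.40, SE 1.14, edgeR adjusted p = 0.0511). Cxcl3 passed the filter on low counts through the GR KO libraries alone, so its direction was fixed in advance. Cxcl5 had 9.09 and 6.34 CPM in GR KO DP and 0 and 0.558 CPM in Control DP, without overlap (log2 fold change 4.78, SE 1.31, edgeR adjusted p = 0.107). Cxcl1 had 75.7 and 64.1 CPM in GR KO DP, between the Control values of 50.5 and 98.4 CPM (log2 fold change -0.09, SE 0.37, edgeR adjusted p = 0.968). Cxcr2 itself stood at 1.54 and 1.90 CPM in GR KO DP and 1.97 and 2.42 CPM in Control DP, and at 7.32 to 27.2 CPM in the 4 surgery libraries. The 7 neutrophil markers other than Cxcr2 summed to 2.53 to 6.51 CPM over all DP libraries.

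Among homeostatic and membrane-bound ligands, Cxcl12, the stromal ligand of Cxcr4 and Ackr3, stood at 729.5 and 315 CPM in GR KO DP and 207 and 130.4 CPM in Control DP. Each GR KO library exceeded both Controls (log2 fold change 1.63, SE 0.45, edgeR adjusted p = 0.108). Cxcl16, a transmembrane ligand of Cxcr6, stood at 73.0 and 33.5 CPM in GR KO DP and 22.2 and 7.34 CPM in Control DP, again without overlap (edgeR adjusted p = 0.183). Of its exon bases, 18.3% are shared with Zmynd15 on the other strand. Zmynd15 stood at 7.22 and 5.55 CPM in GR KO DP and 2.13 and 1.58 CPM in Control DP, likewise higher without overlap. Cx3cl1, the membrane-anchored fractalkine, had 20.5 and 28.7 CPM in GR KO DP against 12.7 and 14.8 CPM in Control DP (edgeR adjusted p = 0.484). For these 3 ligands every GR KO library was the higher. Cxcl14 overlapped between groups, with 32.2 and 16.3 CPM in GR KO DP and 16.2 and 17.4 CPM in Control DP. Cxcr4, the signalling receptor of Cxcl12, overlapped as well, at 23.9 and 45.4 CPM in GR KO DP and 28.9 and 48.9 CPM in Control DP. The 12 dermal fibroblast markers summed to 75608 and 88735 CPM in GR KO DP and 29000.1 and 18516 CPM in Control DP, and Col1a2, Col3a1 and Sparc among them rose. Their part in the levels of Cxcl12 and other stromal ligands was not tested.

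The atypical receptors differed in direction, and Ackr4 alone of them was called. Ackr4 stood at 92.1 and 102 CPM in GR KO DP and 239 and 377 CPM in Control DP, and both GR KO libraries were also below those of ADX and Sham (log2 fold change -1.67, SE 0.32, edgeR adjusted p = 0.0415). The edgeR adjusted p was 0.0783 and 0.389 without Control DP replicates 1 and 2, 0.172 and 0.124 without GR KO DP replicates 1 and 2, 0.0625 with only these groups fitted and 0.0516 with the GC and length offset. Ackr4 shares 8.9% of its exon bases with Acad11 on the other strand, whose log2 fold change was 0.22 (edgeR adjusted p = 0.853). Ackr3, a scavenger of Cxcl12, stood at 314 and 142 CPM in GR KO DP and 92.4 and 26.7 CPM in Control DP, without overlap (log2 fold change 1.93, SE 0.58, edgeR adjusted p = 0.135). Ackr2, which clears inflammatory CC chemokines, stood at 16.2 and 25.9 CPM in GR KO DP and 4.02 and 0.837 CPM in Control DP, without overlap (log2 fold change 3.10, SE 0.92, edgeR adjusted p = 0.135). Of the Ackr2 counts in GR KO DP, 100% in replicate 1 and 69.7% in replicate 2 were assigned to a transcript that held 0 and 9 counts in Control DP. Ackr1, which binds CC and CXC chemokines on venules, had 8.44 and 3.73 CPM in GR KO DP and 3.86 and 3.53 CPM in Control DP, and the groups overlapped. Cadm3, which shares 25.7% of the exon bases of Ackr1 on the same strand, stood at 11.9 and 16.5 CPM in GR KO DP. In Control DP it stood at 14.4 and 10.8 CPM.

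The lymphoid chemokines and their receptors were low and variable in DP. Ccl19, a ligand of Ccr7, stood at 10.96 and 59.9 CPM in GR KO and 15.7 and 6.23 CPM in Control DP. Ccl21a, a second Ccr7 ligand, stood at 16.3 and 23.1 CPM in GR KO and 33.5 and 30.3 CPM in Control DP, without overlap and not called (edgeR adjusted p = 0.537), and it has near-identical copies whose counts are uncertain. Ccl25 had 10.6 and 14.1 CPM in GR KO and 8.51 and 7.44 CPM in Control DP. Ccl27a, with a near-identical copy as well, had 17.1 and 18.0 CPM in GR KO and 64.9 and 19.1 CPM in Control DP. Neither gene overlapped between the groups, Ccl25 being higher and Ccl27a lower in GR KO. Ccr9, the Ccl25 receptor, had 1.30 and 4.60 CPM in GR KO and 1.26 and 0.465 CPM in Control DP. Cxcl13, which attracts B cells, had 4.63 and 0.317 CPM in GR KO and 4.33 and 2.79 CPM in Control DP, and the interferon-induced Cxcl10 had 3.73 and 8.24 CPM in GR KO DP and 4.18 and 2.51 CPM in Control DP. Of all 44 genes, 13 were higher in GR KO without overlap (background 31.6%) and 6 lower (background 20.0%). Cxcl3, whose direction was fixed in advance by the filter on low counts, is among the 13.

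**Figure D2:**
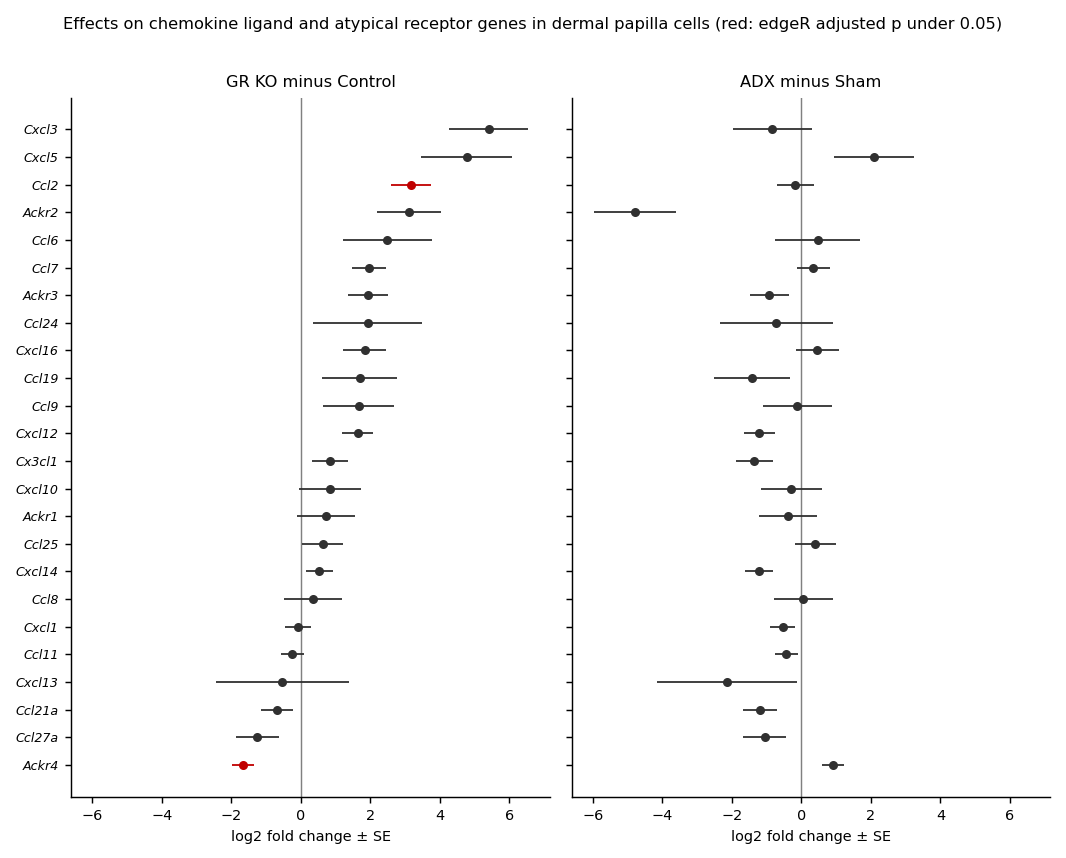
Log2 fold change with SE of 24 chemokine ligand and atypical receptor genes that averaged 5 CPM or more in a DP group, for GR KO minus Control (left) and ADX minus Sham (right). Genes with an edgeR adjusted p under 0.05 are red: Ccl2 at 3.16 and Ackr4 at -1.67 after GR deletion, and 0 genes after adrenalectomy.

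Adrenalectomy, which removes the source of corticosterone rather than its receptor, gave 0 calls among the 44 genes in DP. At an unadjusted p under 0.05 there were 2 higher and 5 lower (background 4.18% and 7.49%), and DESeq2 called 0 higher (background 0.835%) and 1, Ackr2, lower (background 1.32%). Over all genes edgeR called 0.0128% higher and 0.00426% lower. Without overlap between the groups, 11 genes were higher in ADX and 10 lower (background 23.9% and 19.4%). Cxcl15 is among the 2 and the 11, and Ccr3 is among the 11. Both passed the filter on low counts through the ADX libraries alone, so their direction was fixed in advance. The median log2 fold change was -0.10, against 0.08 for all genes, and 0.22 without Sham DP replicate 2.

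Ackr2 had 0 and 0.234 CPM in ADX DP and 3.57 and 3.95 CPM in Sham DP. The ADX group held 2 reads in all, so its level was lower by 29.6-fold (exact 95% counting interval 7.97 to 248), with an edgeR adjusted p = 0.230. Ackr4 stood at 204 and 317 CPM in ADX DP and 139 and 137 CPM in Sham DP, both ADX libraries being higher (log2 fold change 0.91, SE 0.31, edgeR adjusted p = 0.318). Ackr3 stood at 25.4 and 13.4 CPM in ADX DP and 37.5 and 35.8 CPM in Sham DP, both ADX libraries being lower (log2 fold change -0.92, SE 0.57, edgeR adjusted p = 0.564). Ackr1 overlapped, with 9.03 and 3.75 CPM in ADX DP and 3.57 and 13.0 CPM in Sham DP.

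Of the homeostatic ligands, Cxcl12 stood at 81.6 and 71.8 CPM in ADX DP and 121 and 232 CPM in Sham DP, and Cxcl14 at 20.8 and 32.7 CPM in ADX DP and 64.2 and 59.6 CPM in Sham DP. Both were lower in each ADX library, with log2 fold changes of -1.21 (SE 0.45, edgeR adjusted p = 0.343) and -1.21 (SE 0.40, edgeR adjusted p = 0.306). Cx3cl1 stood at 5.98 and 12.3 CPM in ADX DP and 31.0 and 15.6 CPM in Sham DP, and Ccl21a at 5.70 and 7.62 CPM in ADX DP and 20.8 and 9.66 CPM in Sham DP, again lower in both ADX libraries. Cxcl1 had 104 and 99.8 CPM in ADX DP and 188 and 107 CPM in Sham DP, lower without overlap by a small margin. Ccl11 overlapped, at 166 and 257 CPM in ADX DP and 320.0 and 252 CPM in Sham DP. The fibroblast markers summed to 28494 and 24471 CPM in ADX DP and 33865 and 40466 CPM in Sham DP, and pericyte and smooth muscle markers to 7230.3 and 1332 CPM in ADX DP and 614 and 741 CPM in Sham DP. Their part in these differences was not tested.

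The inflammatory ligands were partly separated by adrenalectomy, and 0 of them were called. Ccl2 had 22.5 and 53.8 CPM in ADX DP and 58.6 and 27.1 CPM in Sham DP, and Ccl7 had 26.7 and 41.4 CPM in ADX DP and 36.4 and 17.6 CPM in Sham DP. Both overlapped, with log2 fold changes of -0.17 (SE 0.54) and 0.34 (SE 0.48). Cxcl3 had 0.139 and 0.352 CPM in ADX DP and 0.348 and 0.564 CPM in Sham DP, at most 7 reads in a library. Cxcl5 had 3.06 and 6.33 CPM in ADX DP and 1.39 and 0.805 CPM in Sham DP, higher in both ADX libraries (log2 fold change 2.09, SE 1.14, edgeR adjusted p = 0.515). Cxcl15, named here for its small p, had 7.78 and 1.41 CPM in ADX DP and 0.436 and 0.322 CPM in Sham DP (log2 fold change 3.56, SE 1.35, edgeR adjusted p = 0.353). Its 2 ADX libraries, both higher, differed by a wide margin from each other. Cxcl15 passed the filter on low counts through these libraries alone, so its direction was fixed in advance. Ccl6 had 21.7 and 50.5 CPM in ADX DP and 30.5 and 21.6 CPM in Sham DP, Ccl8 had 16.4 and 24.7 CPM in ADX DP and 13.9 and 25.8 CPM in Sham DP, and Ccl9 had 32.4 and 79.8 CPM in ADX DP and 100.3 and 21.8 CPM in Sham DP. These 3 overlapped between the groups, as did Cxcl16 (8.62 and 15.2 CPM in ADX DP and 11.2 and 6.20 CPM in Sham DP) and Cxcl10 (4.03 and 5.27 CPM in ADX DP and 2.00 and 9.34 CPM in Sham DP).

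Of the 12 signalling receptors tested, 9 had a positive log2 fold change after adrenalectomy (background 53.5%), with a median of 0.81, and 0 were called. Ccr2 had 19.0 and 4.45 CPM in ADX DP and 2.18 and 2.58 CPM in Sham DP. Cxcr2 had 27.2 and 23.4 CPM in ADX DP and 7.32 and 18.0 CPM in Sham DP. For both receptors each ADX library exceeded both Sham libraries, and the edgeR adjusted p were 0.554 and 0.542. Ccr3, an eotaxin receptor under 5 CPM, had 35 reads in ADX and 2 in Sham, higher by 26.6-fold (exact 95% counting interval 6.83 to 228). It passed the filter on low counts through the ADX libraries alone, so its direction was fixed in advance, also among the 9. Cxcr4 (25.2 and 37.6 CPM in ADX DP and 26.0 and 8.62 CPM in Sham DP) and Ccr9 (10.98 and 5.27 CPM in ADX DP and 2.44 and 9.34 CPM in Sham DP) overlapped. Macrophage markers summed to 306 and 339 CPM in ADX DP and 240.3 and 277 CPM in Sham DP. The 7 neutrophil markers other than Cxcr2 summed to 4.86 and 4.22 CPM in ADX DP and 2.53 and 4.91 CPM in Sham DP, with S100a9 at 0 in all 4 libraries. T cell markers summed to 125 and 162 CPM in ADX DP and 120.1 and 204 CPM in Sham DP. Most of that was Thy1, also on the dermal fibroblast list, at 106 and 139 CPM in ADX DP and 111 and 180 CPM in Sham DP. The part of such cells in these receptor levels was not tested.

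Setting both manipulations side by side in DP, the effect of GR deletion on Ackr4 minus that of adrenalectomy was -2.58 (SE 0.45, edgeR adjusted p = 0.0454), the only gene of the 44 called in this difference (background 0.349% higher and 0.128% lower). Both component effects had opposite signs, -1.67 after GR deletion and 0.91 after adrenalectomy. Over the 8 libraries left out in turn the edgeR adjusted p was 0.0381 to 0.228, under the threshold only without ADX DP replicate 1, and with the GC and length offset it was 0.0549. Cxcl12 had a difference of 2.84 (SE 0.63, edgeR adjusted p = 0.0715), Ccl2 one of 3.32 (SE 0.78, edgeR adjusted p = 0.0777) and Ackr3 one of 2.85 (SE 0.81, edgeR adjusted p = 0.129). None of these 3 passed. Ackr2 and Cxcl3, where ADX libraries hold few reads, had an edgeR adjusted p of 0.0569 and 0.0939. At an unadjusted p under 0.05 there were 8 higher and 2 lower (background 10.6% and 4.69%), and DESeq2 called 5 higher and 1 lower (background 3.13% and 2.13%). The filter on low counts favoured these directions for Cxcl3, among the 8 and the 5, and for Cxcl15, among the 2.

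**Figure D3:**
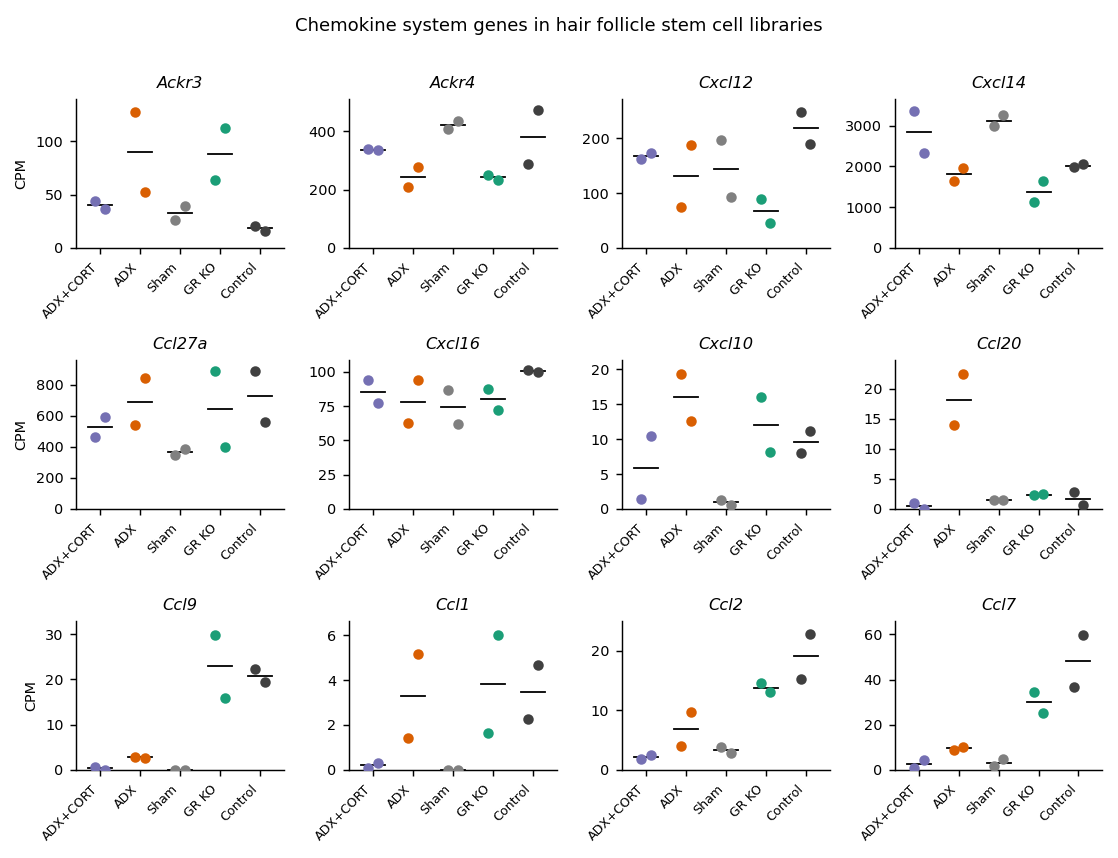
CPM of 12 chemokine and receptor genes in each HFSC library (points), with the group mean (line), for ADX+CORT, ADX, Sham, GR KO and Control. Ccl20 stands at 13.9 and 22.5 CPM in ADX and at or below 2.76 CPM in the other groups, and Ackr3 at 63.3 and 112 CPM in GR KO against 20.3 and 16.3 in Control.

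In HFSC, adrenalectomy gave 0 calls among the 42 chemokine genes tested in edgeR (over all 15231 genes, 0.282% were called higher and 0.0131% lower). At an unadjusted p under 0.05 there were 12 higher and 2 lower (background 9.01% and 6.21%), and DESeq2 called 8 higher and 2 lower (background 3.49% and 1.56%). The 12 were the ligands Ccl1, Ccl7, Ccl8, Ccl9, Ccl12, Ccl20, Ccl24, Ccl27a, Cxcl9 and Cxcl10 and the atypical receptors Ackr1 and Ackr3. Those lower were Cxcl14 and Ackr4, the ligand and the receptor with the highest level per kilobase in Sham HFSC. Without overlap, 18 genes were higher in ADX and 4 lower (background 25.5% and 23.9%). The median log2 fold change was 0.82 (all genes 0.00), or 0.63 with the 16 genes that had no read in a group set to their bound, or to 0 where neither group passed the floor, and without Sham HFSC replicate 2 it was 1.88.

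Ccl20, which draws Langerhans cell precursors and T cells through Ccr6, stood at 13.9 and 22.5 CPM in ADX HFSC and 1.41 and 1.55 CPM in Sham HFSC. Its ADX libraries were the 2 highest of all 10 HFSC libraries (log2 fold change 3.62, SE 1.07, edgeR adjusted p = 0.136). Cxcl10, an interferon-induced ligand of Cxcr3, stood at 19.4 and 12.6 CPM in ADX HFSC and 1.29 and 0.565 CPM in Sham HFSC, without overlap (log2 fold change 4.08, SE 0.84, edgeR adjusted p = 0.0637). It shares 5.91% of its exon bases with Art3 on the other strand. Art3 stood at 19.5 and 22.3 CPM in ADX HFSC and 4.17 and 8.48 CPM in Sham HFSC, and its part in the Cxcl10 values was not tested. Ccl20 and Cxcl10 were both called when only ADX and Sham HFSC were fitted, the 2 members called in that fit. Cxcl9, induced likewise, had 3.52 and 4.80 CPM in ADX HFSC and 1.06 and 1.41 CPM in Sham HFSC, again without overlap (edgeR adjusted p = 0.293).

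Ccl9 had 2.81 and 2.69 CPM in ADX HFSC and no read in either Sham library, an excess of at least 28.5-fold against a floor of 3 reads over the Sham group (edgeR adjusted p = 0.0545). Ccl1, a Ccr8 ligand, had 1.41 and 5.15 CPM in ADX HFSC and no read in Sham HFSC, at least 35.8-fold higher (edgeR adjusted p = 0.0717). Ccl24 had 0.422 and 0.351 CPM in ADX HFSC, 12 reads in all, and none in Sham HFSC, at least 3.98-fold higher (edgeR adjusted p = 0.0959). These 3 ligands were thus seen in both ADX libraries and in neither Sham library, Ccl24 at under 1 CPM. Floors and counting intervals cover counting error only, since the reads carry no molecular identifiers and can be copies of 1 molecule. Ccl8 stood at 12.4 and 11.5 CPM in ADX HFSC and 0.587 and 3.39 CPM in Sham HFSC (log2 fold change 2.62, SE 0.62, edgeR adjusted p = 0.0863), and Ccl7 at 9.001 and 10.2 CPM in ADX HFSC and 1.53 and 4.94 CPM in Sham HFSC. Ccl2 had 4.08 and 9.71 CPM in ADX HFSC and 3.88 and 2.83 CPM in Sham HFSC. The groups overlapped for none of Ccl2, Ccl7 and Ccl8, and ADX was the higher. Ccl6 overlapped, with 6.47 and 2.69 CPM in ADX HFSC and 1.06 and 4.52 CPM in Sham HFSC. Ccl12, with 1.13 and 0.585 CPM in ADX HFSC and 0 and 0.141 CPM in Sham HFSC, was higher by 12.9-fold (exact 95% counting interval 3.24 to 113). Macrophage markers summed to 73.0 and 62.1 CPM in ADX HFSC and 31.0 and 65.9 CPM in Sham HFSC, where Adgre1 and Cd163 were at 0 in both libraries. T cell markers (8 in the HFSC table) summed to 13.6 and 13.0 CPM in ADX HFSC and 1.88 and 9.89 CPM in Sham HFSC. Of these sums Thy1, also on the dermal fibroblast list, gave 4.57 and 8.25 CPM in ADX HFSC and 0.705 and 4.59 CPM in Sham HFSC. Mast cell markers (7) summed to 2.95 and 13.1 CPM in ADX HFSC and 0 and 0.706 CPM in Sham HFSC. The part of such cells in these ligand levels was not tested.

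Among the abundant genes, Cxcl14 stood at 1642 and 1975 CPM in ADX HFSC and 2981 and 3268 CPM in Sham HFSC (log2 fold change -0.79, SE 0.26, edgeR adjusted p = 0.176). Ackr4 stood at 210.2 and 279 CPM in ADX HFSC and 408 and 436 CPM in Sham HFSC (log2 fold change -0.79, SE 0.25, edgeR adjusted p = 0.167). Both were lower in each ADX library. Ackr4 shares 9.06% of its exon bases in the HFSC annotation with Acad11 on the other strand. Acad11 stood at 21.2 and 25.3 CPM in ADX HFSC and 42.3 and 38.2 CPM in Sham HFSC, and its part in the Ackr4 values was not tested. Ackr3 stood at 127 and 52.6 CPM in ADX HFSC and 25.8 and 39.0 CPM in Sham HFSC, higher in each ADX library (log2 fold change 1.47, SE 0.40, edgeR adjusted p = 0.109). Leaving out ADX HFSC replicate 1 gave a log2 fold change of 0.70 (edgeR adjusted p = 0.662), and leaving out replicate 2 gave 1.99 (edgeR adjusted p = 0.0386). Ccl27a stood at 539 and 847 CPM in ADX HFSC and 347 and 387 CPM in Sham HFSC, higher in each ADX library (edgeR adjusted p = 0.247). Cxcl12 overlapped, at 75.5 and 188 CPM in ADX HFSC and 196 and 93.4 CPM in Sham HFSC, and so did Cxcl16, at 62.4 and 94.2 CPM in ADX HFSC and 87.0 and 61.6 CPM in Sham HFSC. Cx3cl1 had 14.4 and 17.0 CPM in ADX HFSC and 17.8 and 19.0 CPM in Sham HFSC, Ccl25 had 9.70 and 8.07 CPM in ADX HFSC and 7.17 and 7.13 CPM in Sham HFSC, and Cxcr4 had 4.36 and 5.15 CPM in ADX HFSC and 2.58 and 0.424 CPM in Sham HFSC. Ccl25 and Cxcr4 were higher and Cx3cl1 lower in ADX, each without overlap. Ccr4, a receptor of skin-homing T cells, overlapped, with 13.3 and 8.77 CPM in ADX HFSC and 5.05 and 10.2 CPM in Sham HFSC. Ackr1 had 0.422 and 5.91 CPM in ADX HFSC and 0.470 and 0.141 CPM in Sham HFSC, with the higher value in replicate 2 only. It shares 25.7% of its exon bases with Cadm3 on the same strand. Cadm3 stood at 0 and 0.702 CPM in ADX HFSC and 0.881 and 1.62 CPM in Sham HFSC, and its part in the Ackr1 values was not tested. The 15 HFSC markers summed to 31225 and 42053 CPM in ADX HFSC and 58175 and 61997 CPM in Sham HFSC, and their part in the lower Cxcl14 and Ackr4 was not tested.

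With corticosterone feeding after adrenalectomy, 17 of the 42 genes were lower in both ADX+CORT libraries than in either ADX library and 7 were higher (background 25.8% and 26.7%). The 17 included Ccl20, Ccl1, Ccl2, Ccl7, Ccl8, Ccl9 and Cxcl10. In edgeR 0 of the 42 genes and 0.0% of all genes were called in either direction. At an unadjusted p under 0.05 there were 3 higher and 11 lower in ADX+CORT (background 9.78% and 9.53%), and DESeq2 called 9, all lower (background 3.72% higher and 4.67% lower). The median log2 fold change was -0.53 (all genes 0.00), -0.29 with the 13 genes that lacked reads in a group at their bound or at 0, and -1.17 without ADX+CORT HFSC replicate 2. ADX libraries are shared with the comparison of ADX and Sham, so the opposite signs in both comparisons are not independent of each other.

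Ccl20 stood at 1.06 and 0 CPM in ADX+CORT HFSC and 13.9 and 22.5 CPM in ADX HFSC (log2 fold change -5.08, SE 1.16, edgeR adjusted p = 0.0639). Ccl9 stood at 0.743 and 0 CPM in ADX+CORT HFSC and 2.81 and 2.69 CPM in ADX HFSC (log2 fold change -2.86, SE 0.86, edgeR adjusted p = 0.103). Ccl1 stood at 0.106 and 0.326 CPM in ADX+CORT HFSC and 1.41 and 5.15 CPM in ADX HFSC (log2 fold change -3.89, SE 1.2, edgeR adjusted p = 0.114). In each case both ADX+CORT libraries were below both ADX libraries. Ccl24 and Ccl12 had no read in ADX+CORT HFSC and were lower than in ADX HFSC by at least 4.76-fold and at least 10.3-fold (edgeR adjusted p = 0.0653 and 0.0791). Ccl2 had 1.75 and 2.55 CPM in ADX+CORT HFSC and 4.08 and 9.71 CPM in ADX HFSC (log2 fold change -1.68, SE 0.50, edgeR adjusted p = 0.0990). Ccl7 had 0.955 and 4.29 CPM in ADX+CORT HFSC and 9.001 and 10.2 CPM in ADX HFSC, Ccl8 had 2.07 and 8.14 CPM in ADX+CORT HFSC and 12.4 and 11.5 CPM in ADX HFSC, and Ccl6 had 1.17 and 0.760 CPM in ADX+CORT HFSC and 6.47 and 2.69 CPM in ADX HFSC. Again ADX+CORT was lower without overlap in all 4. Cxcl10 had 1.38 and 10.4 CPM in ADX+CORT HFSC and 19.4 and 12.6 CPM in ADX HFSC, where ADX+CORT replicate 2 came close to ADX replicate 2. Cxcl9 had 1.17 and 2.497 CPM in ADX+CORT HFSC and 3.52 and 4.80 CPM in ADX HFSC, also lower without overlap. Macrophage markers summed to 39.4 and 48.8 CPM in ADX+CORT HFSC and 73.0 and 62.1 CPM in ADX HFSC, a difference whose part in these ligands was not tested.

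The abundant genes differed less between the same groups. Ackr3 stood at 43.6 and 36.1 CPM in ADX+CORT HFSC and 127 and 52.6 CPM in ADX HFSC (log2 fold change -1.18, SE 0.39, edgeR adjusted p = 0.128). Here too the size rested largely on ADX HFSC replicate 1, with a log2 fold change of -0.40 without it (edgeR adjusted p = 0.780) and -1.69 without ADX HFSC replicate 2 (edgeR adjusted p = 0.0402). Ackr4 had 339 and 336 CPM in ADX+CORT HFSC and 210.2 and 279 CPM in ADX HFSC, and Cxcl14 had 3369.8 and 2336 CPM in ADX+CORT HFSC and 1642 and 1975 CPM in ADX HFSC. These 2 genes were higher in each ADX+CORT library and Ackr3 was lower. Cx3cl1 had 25.1 and 48.8 CPM in ADX+CORT HFSC and 14.4 and 17.0 CPM in ADX HFSC, higher without overlap (edgeR adjusted p = 0.122). Cxcl12 (161 and 173 CPM in ADX+CORT HFSC and 75.5 and 188 CPM in ADX HFSC), Cxcl16 (93.7 and 77.2 CPM in ADX+CORT HFSC and 62.4 and 94.2 CPM in ADX HFSC) and Ccl27a (463 and 594 CPM in ADX+CORT HFSC and 539 and 847 CPM in ADX HFSC) overlapped. Ccl28, an epithelial ligand of Ccr10 and Ccr3 under 5 CPM in every group, had 51 reads in ADX+CORT HFSC and none in ADX HFSC, at least 14.3-fold higher. No group but ADX+CORT reached the filter on low counts in both libraries, so its direction was partly set by that filter.

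Against Sham, ADX+CORT HFSC gave 0 calls as well, again with 0.0% of all genes called, 5 genes higher and 0 lower at an unadjusted p under 0.05 (background 4.33% and 1.75%), and 0 calls in DESeq2 (background 0.322% and 0.0263%). Cxcl10, at 1.38 and 10.4 CPM in ADX+CORT HFSC and 1.29 and 0.565 CPM in Sham HFSC, had the smallest p (log2 fold change 2.64, SE 0.81, edgeR adjusted p = 0.625), and its lower ADX+CORT library was close to the higher Sham library. Cx3cl1 stood at 25.1 and 48.8 CPM in ADX+CORT HFSC and 17.8 and 19.0 CPM in Sham HFSC, and Ccl8 at 2.07 and 8.14 CPM in ADX+CORT HFSC and 0.587 and 3.39 CPM in Sham HFSC, with log2 fold changes of 1.01 (SE 0.40, edgeR adjusted p = 0.770) and 1.40 (SE 0.63, edgeR adjusted p = 0.806). Cx3cl1 did not overlap between the groups and Ccl8 did. Ccl9 and Ccl1, without a read in Sham, were at least 3.90-fold and 2.23-fold higher in ADX+CORT HFSC, and the Ccl9 reads all came from replicate 1. Ackr4 had 339 and 336 CPM in ADX+CORT HFSC and 408 and 436 CPM in Sham HFSC (log2 fold change -0.32, SE 0.25), and Ccl27a had 463 and 594 CPM in ADX+CORT HFSC and 347 and 387 CPM in Sham HFSC (log2 fold change 0.53, SE 0.36). Without overlap, 9 genes were higher and 4 lower (background 21.5% and 19.1%), and the median was 0.25 (all genes 0.01), or 0.08 with 17 genes set to a bound or to 0, and 0.00 without ADX+CORT HFSC replicate 2.

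Deletion of GR in dermal cells changed 1 of the 42 chemokine genes in HFSC, a population that the Cre driver is not meant to target. Ackr3 rose by 2.26 on the log2 scale, with 63.3 and 112 CPM in GR KO HFSC and 20.3 and 16.3 CPM in Control HFSC (log2 fold change 2.26, SE 0.41, edgeR adjusted p = 0.0327), and both GR KO libraries were above both Controls. The background was 0.67% of all genes called higher and 0.315% lower. Without Control HFSC replicate 1 or 2 the edgeR adjusted p was 0.102 or 0.244, and leaving out GR KO HFSC replicate 2 gave a log2 fold change of 1.79 and an edgeR adjusted p = 0.122. In the surgery groups Ackr3 spanned 25.8 to 127 CPM, and the Control HFSC libraries were the 2 lowest of all 10.

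Cxcl12, which Ackr3 binds, stood at 88.6 and 46.1 CPM in GR KO HFSC and 249 and 190.4 CPM in Control HFSC, lower without overlap (log2 fold change -1.70, SE 0.44, edgeR adjusted p = 0.0894). Ackr4 stood at 249.8 and 234 CPM in GR KO HFSC and 287 and 474 CPM in Control HFSC (log2 fold change -0.65, SE 0.25, edgeR adjusted p = 0.282), and Cxcl14 at 1119 and 1633 CPM in GR KO HFSC and 1978 and 2066 CPM in Control HFSC (log2 fold change -0.56, SE 0.26, edgeR adjusted p = 0.391). Both were lower in each GR KO library. Acad11, which overlaps Ackr4, stood at 47.0 and 46.1 CPM in GR KO HFSC and 41.8 and 28.6 CPM in Control HFSC. Cxcl16 was lower in each GR KO library too, at 87.4 and 72.4 CPM in GR KO HFSC and 101 and 99.9 CPM in Control HFSC. Ccl27a overlapped, at 888 and 403 CPM in GR KO HFSC and 888 and 564 CPM in Control HFSC. Cx3cl1 (28.7 and 17.9 CPM in GR KO HFSC and 14.4 and 28.6 CPM in Control HFSC) and Ccl25 (12.9 and 4.51 CPM in GR KO HFSC and 3.47 and 7.32 CPM in Control HFSC) overlapped as well. The HFSC markers summed to 29426 and 40335 CPM in GR KO HFSC and 58286 and 64194 CPM in Control HFSC. Fibroblast markers summed to 808 and 1068 CPM in GR KO HFSC and 1574 and 2070.3 CPM in Control HFSC. Most of that was 1 gene, Sparc, at 586 and 733 CPM in GR KO HFSC and 1120 and 1698 CPM in Control HFSC. Of the 12 fibroblast markers, 11 had a negative log2 fold change and 1 a positive one, with 0 called. The part of both marker lists in these levels was not tested.

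No inflammatory ligand was called in HFSC after GR deletion. Ccl2 had 14.6 and 13.0 CPM in GR KO HFSC and 15.3 and 22.8 CPM in Control HFSC, and Ccl7 had 34.7 and 25.4 CPM in GR KO HFSC and 36.8 and 59.9 CPM in Control HFSC. Both were lower in each GR KO library, with log2 fold changes of -0.46 (SE 0.47) and -0.69 (SE 0.57) and an edgeR adjusted p of 0.772 and 0.687. Ccl8 had 431 and 509.9 CPM in GR KO HFSC and 474 and 498 CPM in Control HFSC, Ccl9 had 29.9 and 15.9 CPM in GR KO HFSC and 22.3 and 19.3 CPM in Control HFSC, and Ccl6 had 61.3 and 16.8 CPM in GR KO HFSC and 36.0 and 36.3 CPM in Control HFSC, all overlapping. Ccl5, a T cell and macrophage product, had no read in GR KO HFSC and 45 in Control HFSC, at least 12.1-fold lower. No group but Control reached the filter on low counts in both libraries, so its direction was partly set by that filter. Ccl4, an inflammatory CC ligand, had 2.18 and 3.85 CPM in GR KO HFSC and 3.42 and 16.3 CPM in Control HFSC, and Ccl12 had 3.28 and 4.40 CPM in GR KO HFSC and 1.84 and 8.62 CPM in Control HFSC, the highest value of each in Control replicate 2. Cxcl2, a neutrophil ligand, had 1.91 and 2.56 CPM in GR KO HFSC and 4.60 and 11.3 CPM in Control HFSC, and the interferon-induced Cxcl9 had 3.73 and 1.45 CPM in GR KO HFSC and 8.02 and 5.93 CPM in Control HFSC, both lower without overlap. Cxcl10 (16.0 and 8.14 CPM in GR KO HFSC and 8.02 and 11.2 CPM in Control HFSC) and Ccl20 (2.32 and 2.45 CPM in GR KO HFSC and 2.76 and 0.666 CPM in Control HFSC) overlapped.

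Of the receptors, Ccr4 had 7.42 and 3.23 CPM in GR KO HFSC and 1.94 and 1.43 CPM in Control HFSC, higher without overlap (log2 fold change 1.66, SE 0.56, edgeR adjusted p = 0.206). Ccr9 had 31 reads in GR KO HFSC and none in Control HFSC, at least 12.8-fold higher (edgeR adjusted p = 0.105). Ccr2 had 5.92 and 4.79 CPM in GR KO HFSC and 9.09 and 6.66 CPM in Control HFSC, lower without overlap. Cxcr4 (1.82 and 9.31 CPM in GR KO HFSC and 3.22 and 4.19 CPM in Control HFSC) and Ackr1 (6.87 and 5.18 CPM in GR KO HFSC and 5.62 and 2.90 CPM in Control HFSC) overlapped. Cadm3, which shares exon bases with Ackr1, stood at 31.0 and 20.1 CPM in GR KO HFSC and 44.7 and 14.6 CPM in Control HFSC. In all, 4 genes were higher and 3 lower at an unadjusted p under 0.05 (background 7.0% and 6.12%), DESeq2 called 2 higher and 1 lower (background 2.77% and 1.71%), and 5 were higher and 12 lower without overlap (background 19.3% and 19.1%). The median log2 fold change was 0.11 (all genes 0.00), and -0.43 without GR KO HFSC replicate 1.

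The difference between both effects in HFSC, GR deletion minus adrenalectomy, was called for 0 of the 42 genes and for 0.0% of all genes. At an unadjusted p under 0.05 there were 2 higher and 13 lower (background 4.16% and 6.41%), and DESeq2 called 0 (background 0.138% and 0.657%). The smallest edgeR adjusted p was 0.356, for Ccl9. Cxcl10 had a difference of -3.75 (SE 1.08, edgeR adjusted p = 0.376), and Ccl8 one of -2.67 (SE 0.79, edgeR adjusted p = 0.376). Ccl1 and Ccl24 follow in order of p, and like Ccl9 they had no read in Sham HFSC.

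Ligands that macrophages make stood at different levels in both HFSC experiments, which were not tested against each other. Ccl8 ranged over 431 to 510 CPM in the 4 libraries of the deletion experiment and over 0.587 to 12.4 CPM in the 6 of the surgery experiment. Ccl6 was at 16.8 CPM or more in the 4 deletion libraries and at 6.47 CPM or less in the 6 surgery libraries, and Ccl9 at 15.9 CPM or more against 2.81 CPM or less. Ccl24 stood at 12.0 and 8.58 CPM in GR KO HFSC and 8.69 and 10.3 CPM in Control HFSC, against at most 0.422 CPM in a surgery library. All 11 macrophage markers had reads in each deletion library, with sums of 1039 and 855 CPM in GR KO HFSC and 953 and 968 CPM in Control HFSC, against 31.0 to 73.0 CPM over the surgery libraries. Langerhans and dendritic cell markers summed to 3327 to 4430 CPM over the deletion libraries and 564 to 836 CPM over the surgery libraries. Most of the surgery sums was Epcam and Mfge8, and most of the deletion sums was Cd74, H2-Aa and H2-Ab1. Cd74 ranged over 1625 to 2279 CPM in the deletion libraries and 34.4 to 111 CPM in the surgery libraries. Cd207, on the same list, overlapped between the experiments, at 1.003 to 13.5 CPM against 0.424 to 4.80 CPM. The part of Langerhans cells in the higher sums was not tested. The experiments differ in strain and tamoxifen as well as in these marker sums, and the part of each cannot be told apart. In DP the highest value of each of these ligands was that of GR KO replicate 1.

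**Figure D4:**
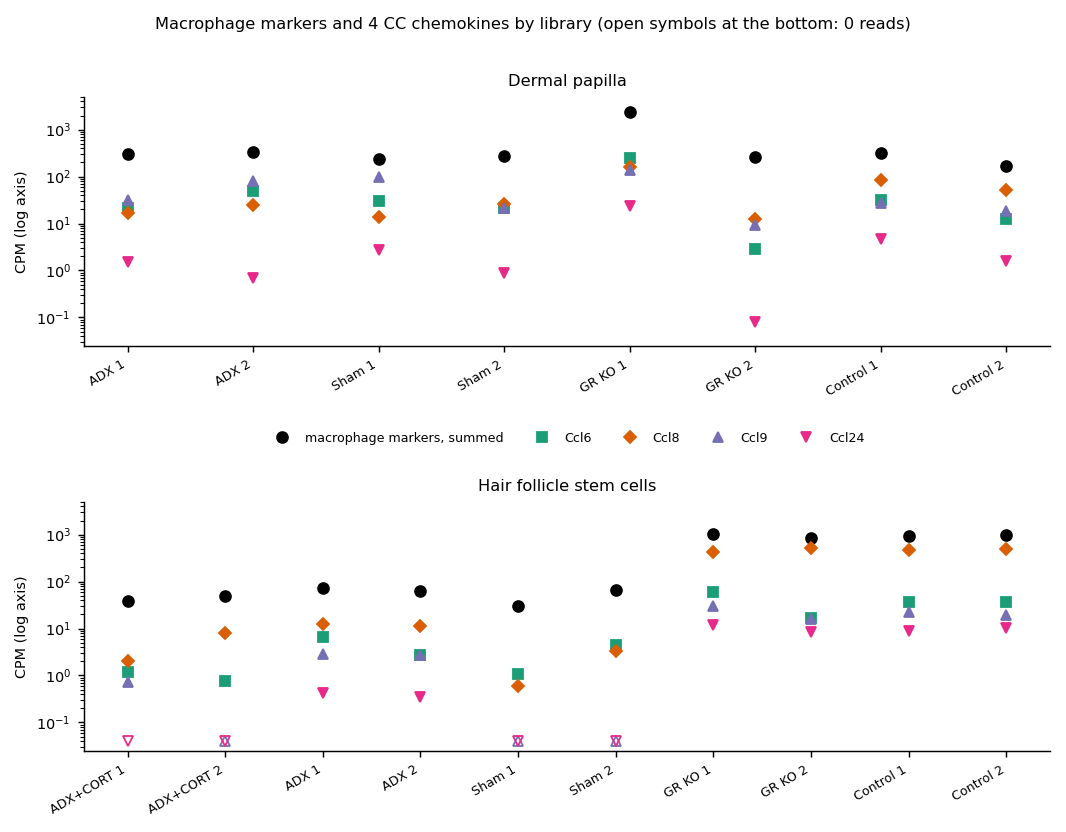
Summed CPM of 11 macrophage markers and CPM of Ccl6, Ccl8, Ccl9 and Ccl24 in each DP and HFSC library, on a log axis, with open symbols at the bottom for libraries without a read. Ccl8 is at 431 to 510 CPM in the 4 GR KO and Control HFSC libraries and at most 12.4 CPM in the 6 surgery libraries, and the marker sum of GR KO DP replicate 1 is 2373 CPM.

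Genes that act with chemokines were read from 4 lists in the same fits, none of which holds a chemokine gene described above. Of 11 anti-inflammatory glucocorticoid targets, 4 fell in GR KO DP (Tsc22d3, Per1, Fkbp5 and Klf9), with a median of -1.50. Tsc22d3, which encodes the NF-kB inhibitor GILZ, stood at 311 and 459 CPM in GR KO DP and 2381 and 2754 CPM in Control DP (log2 fold change -2.74, SE 0.39, edgeR adjusted p = 0.0212). In ADX DP all 11 had a negative log2 fold change, with a median of -0.98 and 0 called, while 53.5% of all genes had a positive one. Fkbp5, a co-chaperone of GR, stood at 13.6 and 15.8 CPM in ADX DP and 159 and 77.5 CPM in Sham DP, lower in each ADX library (log2 fold change -3.00, SE 0.52, edgeR adjusted p = 0.139). In the 4 HFSC comparisons 0 of them passed, with medians of -0.38 to 0.11. Of 17 NF-kB pathway and feedback genes, 1 rose after adrenalectomy in HFSC, Tnfaip3, an inhibitor of NF-kB that NF-kB induces, with 71.4 and 61.5 CPM in ADX HFSC and 23.3 and 16.9 CPM in Sham HFSC (log2 fold change 1.73, SE 0.29, edgeR adjusted p = 0.0393). Both ADX libraries exceeded both Sham libraries. The list as a whole was split in that comparison, with 8 positive and 9 negative log2 fold changes and a median of -0.0. In ADX DP 16 of the 17 had a negative log2 fold change (median -0.51) and in GR KO DP 12 a positive one (median 0.66), with 0 called in either. Of all genes, 53.5% had a positive log2 fold change in ADX DP and 56.4% in GR KO DP. Of the inflammatory cytokines and receptors, 14 were tested in DP and 16 in HFSC. A single gene fell, Il6ra, a subunit of the interleukin 6 receptor, in GR KO DP, where it stood at 32.2 and 17.3 CPM against 99.1 and 120.3 CPM in Control DP (log2 fold change -2.15, SE 0.40, edgeR adjusted p = 0.0388). The other chemokine system genes (11 tested, among them Ccrl2, Dpp4 and Arrb1) gave 0 calls in all 6 comparisons, with medians of -0.70 in ADX DP, -0.04 in GR KO DP, 1.0 in ADX HFSC against Sham, -0.49 in ADX+CORT HFSC against ADX, 0.31 against Sham and 0.12 in GR KO HFSC.

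The remaining genes were scarce. In DP, 14 tested genes stayed under a mean of 5 CPM in every group, and 16 were too low to be tested, of which 2 had no read and none exceeded 5.84 CPM in a library. Among those too low for a test in DP were Ccl20 and Ccl1, ligands seen in HFSC, and the receptors Ccr6, Ccr7, Ccr8, Cxcr1, Cxcr3 and Cxcr5. In HFSC, 18 tested genes stayed under 5 CPM and 18 were too low to be tested, of which 8 had no read and none exceeded 0.866 CPM. Cxcl3, Cxcl5 and their receptor Cxcr2, all tested in DP, were among those too low in HFSC. Receptors were the smaller share of signal in HFSC, where Ccr2, Ccr4 and Cxcr4 alone among the signalling receptors reached a mean of 5 CPM in a group. In DP those that did so included Ccr1, Ccr2, Ccr9, Cxcr2 and Cxcr4.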

How the data were processed

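RNA-seq was made in 18 libraries, 8 of DP and 10 of HFSC. For DP the authors deposited estimated counts per transcript, not whole, from Salmon (version not given in the sources used here). They were summed to gene symbols with GENCODE M21 on GRCm38 (mm10) and rounded; 150 of 134967 transcripts matched none, at most 0.0752% of a library. For HFSC the authors deposited counts per gene from featureCounts 1.6.1, per the file headers over exons at a mapping quality of at least 30 and with no strand setting, so reads of genes that overlap on opposite strands cannot be told apart. Trim Galore 0.4.1, STAR 2.5.3 and DESeq2 1.22.2 are named in the submitters' processing notes. Where a spreadsheet had turned gene names of an HFSC file into dates, they were restored by matching coordinates to another HFSC file.

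Both cell types were fitted separately with all their groups in edgeR 4.0.16 (R 4.3.3): TMM scaling, filterByExpr, the quasi-likelihood F test and Benjamini-Hochberg adjustment over all 23463 DP and 15231 HFSC genes tested, with a threshold of 0.05. Replicate scatter, as edgeR's biological coefficient of variation, came to 54% for DP with 4 residual degrees of freedom and to 38.7% for HFSC with 5. The SE was computed from the F statistic. CPM are counts scaled to a library total of 1000000. Counting intervals are exact at 95%, and the floor for a group without reads is 3 counts over the group. The code was tested on simulated data with 200 changed genes.

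Alternatives were DESeq2 1.42.0, its median-of-ratios scaling, no filter, a block for the replicate number, a fit restricted to 2 groups, an offset for GC content and length (splines with 4 degrees of freedom), both together, and each library left out in turn, where a lone library is assumed to vary like the other groups. Genes were named if called in any comparison, if a group averaged at least 5 CPM, or if among the 5 smallest p of a comparison, and of each other list up to 4 genes with the smallest p. The genes described, the 4 pathway lists and the 12 marker lists were chosen with earlier results of these data known. Values of some genes are not reported here.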

Additional observations from a re-analysis of the deposited data

Results flagged for a closer look

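The effects of GR deletion and adrenalectomy on Ackr4 in DP differed by -2.58 on the log2 scale (edgeR adjusted p = 0.0454), with -1.67 after GR deletion, lower in 2 of 2 GR KO libraries, and 0.91 after adrenalectomy, higher in 2 of 2 ADX libraries. Without any single library other than ADX DP replicate 1, this adjusted p was above the threshold.

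Some genes had log2 fold changes of opposite sign in the 2 cell types under the same manipulation, without overlap between the groups in either. Among all genes tested, 23.9% were higher and 19.4% lower without overlap after adrenalectomy in DP, and 25.5% and 23.9% in HFSC. After GR deletion these shares were 31.6% and 20.0% in DP and 19.3% and 19.1% in HFSC. The share of all genes with opposite signs was not counted, so this list is not shown to exceed it. After adrenalectomy Ackr3 had a log2 fold change of -0.92 in DP and 1.47 in HFSC, Ackr4 of 0.91 in DP and -0.79 in HFSC, and Cxcl1 of -0.54 in DP and 1.98 in HFSC. After GR deletion Ccl2 had 3.16 in DP and -0.46 in HFSC, Ccl7 had 1.96 in DP and -0.69 in HFSC, and Cxcl9 had 1.14 in DP and -1.42 in HFSC. Cxcl12 had 1.63 in DP and -1.70 in HFSC, and Cxcl16 had 1.84 in DP and -0.33 in HFSC. Ccl5 had 1.87 in DP and a fitted -7.19 in HFSC, which is no measured size, since both GR KO HFSC libraries were at 0. The difference between cell types was not tested for any of these, as they were quantified with different tools. Of these values, Ccl2 in DP was called and the others were not.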

How the results depend on the processing

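With median-of-ratios scaling every count of called chemokine genes was the same. After GR deletion in DP, where 2 were called, DESeq2 called 9, the fit without a filter 13, the fit of only these groups 0 and the GC and length offset 0, with 0 to 1 over left-out libraries. For the difference of effects in DP, where 1 was called, these were 6 with DESeq2, 10 without a filter and 0 with the offset, and 0 to 1 over left-out libraries. After adrenalectomy in DP, where 0 were called, DESeq2 called 1 and the fit without a filter 2. After adrenalectomy in HFSC, also 0, there were 10 with DESeq2, 10 without a filter, 2 with only these groups and 0 to 1 over left-out libraries. ADX+CORT against ADX, also 0, gave 9 with DESeq2, 11 without a filter and 0 to 1 over left-out libraries, and against Sham 3 without a filter. After GR deletion in HFSC, where 1 was called, there were 3 with DESeq2, 3 without a filter, 2 with only these groups and 0 to 1 over left-out libraries, and for the difference of effects in HFSC 6 without a filter. The fitted log2 fold change of Ccl9 in ADX+CORT against Sham, where Sham has no read, was 0.00 to 6.81 over left-out libraries, the lowest without ADX+CORT HFSC replicate 1. The cause of these shifts was not tested. Over all genes, GR deletion in DP gave 361 calls, 1554 with DESeq2, 1456 without a filter, 142 with only these groups and 131 with the offset.

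The replicate numbers were not shown to pair the samples, since the deviations of replicate 1 correlated at -0.148 to 0.22 between DP groups and -0.079 to 0.041 between HFSC groups. With the replicate number as a block, 3 genes were called after GR deletion in DP (Ccl2, Ackr4 and Ackr3), 2 with block and offset, 2 for the difference of effects in DP, 1 with block and offset, 1 after GR deletion in HFSC and 0 in the other comparisons. With the numbers crossed between Sham and ADX DP, an alternative chosen after seeing the data, the block fit called 4 for the difference of effects in DP and 0 after adrenalectomy. With 2 libraries a group, a difference that is not called is not shown to be absent.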
